A study of Mus musculus with 8 samples.

Results

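Round spermatids of wild-type mice and of mice with Brdt deleted for its first bromodomain (BD1del) were compared by the chromatin intervals at which anti-Brdt ChIP reads were called enriched. All islands of the 2 round spermatid lists on chromosomes 1 to 19 (mm9) were taken, 67996 from wild type and 190782 from BD1del, together 258778 of the 426082 islands in the 4 lists of the study. An island was called met when 1 base or more of it lay in an island of the other genotype, and not met otherwise. The 2 spermatocyte lists, which took no part in that division, were used only to describe the islands further.

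Brdt is a member of the BET family that is made in male germ cells. Its tandem bromodomains, BD1 and BD2, are folds that bind acetylated lysines of histone tails. During meiosis and in the haploid cells that follow, Brdt takes part in gene activation and, later, in the compaction of acetylated chromatin as histones are exchanged for transition proteins and protamines. Round spermatids are the haploid cells that precede that exchange, and a Brdt that lacks BD1 keeps its other bromodomain.

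The wild-type animals were adult C57BL/6 mice, with 10 mice given per pool and 5 testes per fractionation. Wild-type chromatin was cut by MNase into pieces near 200 bp in size, and 0.6 µg of an immunopurified rabbit antibody raised against recombinant Brdt was used on 500 µg of it. The BD1del animals are also given as adult, with an anti-Brdt antibody. Not given in the sources used here were their strain, zygosity, pool size and chromatin amount, and the part of Brdt that the antibody binds. Round spermatids of both genotypes came from pooled fractions of a BSA gradient, and their purity could not be checked on island lists. Each genotype had 1 ChIP library and 1 input library, so no comparison has a replicate check or a test, and the intervals given are exact (Clopper-Pearson) 95% binomial intervals that cover counting error only. Read sets differed too, with F3 tags in wild type and F3 with F5 tags in BD1del by the names of the lists, so genotype and read set cannot be told apart in any comparison. A gene annotation of mm9 was not used here, and regions are therefore given by position, with 1-based coordinates.

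The autosomal islands of the 2 lists covered similar amounts of the genome in very different pieces. Wild-type islands covered 116.7 Mb, 4.83% of the 2415 Mb between the first and last islands of the autosomes, and BD1del islands covered 136.6 Mb, or 5.66%. The median island was 1400 bases long in wild type (quartiles 800 and 2200) and 400 bases in BD1del (quartiles 200 and 1000). Single windows of 200 bases, the shortest island that can be called, made up 7.70% of the wild-type islands and 39.3% of the BD1del islands. Islands of 2000 to 4800 bases held 48.6% of all bases covered in wild type and 18.0% of those in BD1del. At 5000 bases or more there were 2007 wild-type and 738 BD1del islands.

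Read density differed as well. The median island held 26.1 ChIP reads per kb in wild type (quartiles 20.4 and 40) and 60 in BD1del (quartiles 35 and 95). Control reads stood at a median of 33.5 per kb in wild type and 43.3 in BD1del. The smallest island count was 17 ChIP reads in both lists, so a 200-base island had to be dense to be called. Read counts moved with genotype too: islands held 3684584 ChIP reads in wild type and 6443453 in BD1del. The control library was 3.79 and 5.45 times as deep as the ChIP library. These values do not give the depth of either ChIP library. The deposited fold over control had a median of 2.79 in wild type and 7.12 in BD1del. It was under 2 in 22.9% of wild-type islands and in 1.26% of BD1del islands. The part of depth and read set in these differences was not tested.

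Most islands of either genotype had no counterpart in the other. BD1del islands met 26.4% of the wild-type islands (17957 of 67996) and wild-type islands met 9.79% of the BD1del islands (18684 of 190782). These shares are the background against which the classes below are read. They move with the lists: with the 10000 islands of lowest p from each, which makes the lists equal in number, they were 4.77% and 4.88%, and with islands of at least 1000 bases 18.0% and 16.01%. In bases, 18.4 Mb lay in islands of both lists, which is 15.8% of the wild-type bases, 13.5% of the BD1del bases and 7.84% of the union of 234.9 Mb.

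Met islands were longer and lay where control reads were denser. In wild type the median length was 1800 bases for met and 1400 for not met islands, and the median control density was 41.7 and 31.7 reads per kb. ChIP density hardly differed between them, at 26.0 and 26.1 reads per kb, and the deposited fold was lower in met islands (2.35 against 2.99). That order of ChIP density turned under 8 of the 14 alternatives and within each length class below. The length ratio of met to unmet wild-type islands was 1.29 over all and 1 when at least 50% of an island had to be covered. In BD1del the median length was 1000 bases for met and 400 for not met islands, and the control density was 47.5 and 42.5 reads per kb. There the ChIP density was lower in met islands, 38.3 against 65 reads per kb, and so was the fold, 4.39 against 7.55. That difference in ChIP density shrank when short islands were left out. The ratio of met to unmet was 0.590 over all BD1del islands, 0.872 without single windows and 0.982 with at least 1000 bases. Met islands held 45.4% of the ChIP reads in wild-type islands and 21.4% of those in BD1del islands.

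The share of islands met rose with length in both lists. In wild type it was 12.7% at 200 bases, 20.1% at 400 to 800, 23.6% at 1000 to 1800, 33.7% at 2000 to 4800 and 67.1% at 5000 bases or more. In BD1del the same classes gave 3.97%, 8.68%, 14.02%, 36.2% and 88.3%. A longer island has more bases with which to meet another, so a rise with length follows in part from the rule. Below 2000 bases the wild-type share was the higher, and the 2 lists crossed at 2000 to 4800 bases. Of the 738 longest BD1del islands, 652 met a wild-type island and 86 did not.

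**Figure D1:**
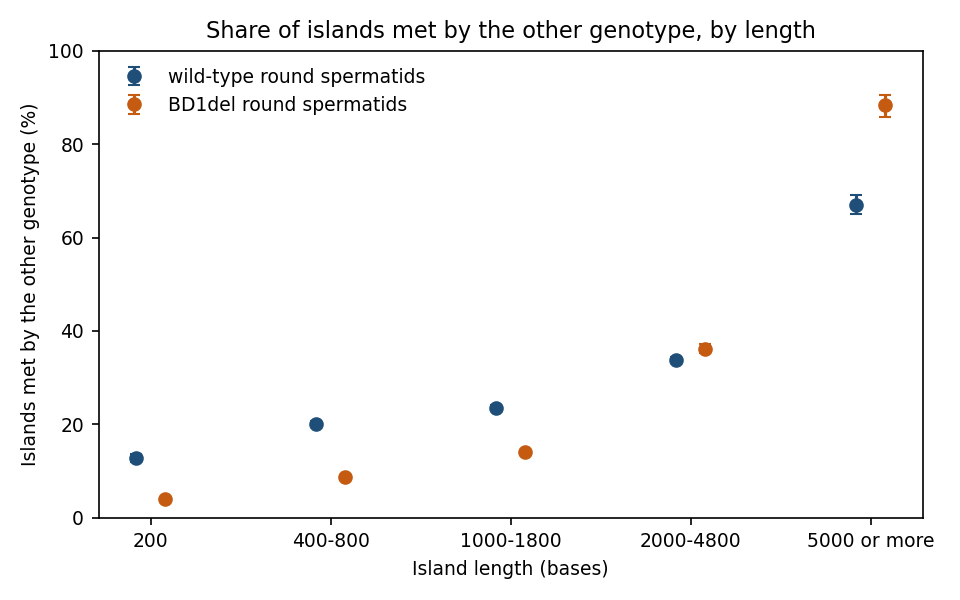
Share of autosomal islands that were met by the other genotype (y axis, %) in 5 classes of island length (x axis, bases), with points for each genotype and bars for the exact 95% binomial interval. The share rose from 12.7% to 67.1% in wild type and from 3.97% to 88.3% in BD1del.

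Within each class of length, met wild-type islands had more control reads per kb than unmet ones, above all among short islands, and somewhat more ChIP reads. Wild-type islands of 200 bases had a median of 90 control reads per kb when met and 30 when not met, with ChIP medians of 105 and 95. At 1000 to 1800 bases the control medians were 36.9 and 30.6 and the ChIP medians 26.7 and 25. At 5000 bases or more they were 56.3 and 48.4 for control and 24.3 and 21.0 for ChIP. In BD1del the control medians were closer, 50 and 45 at 200 bases and 45 and 42 at 1000 to 1800. The longest class of BD1del went the other way, with 62.1 control reads per kb in the 652 met islands and 87.6 in the 86 that were not met. Those 86 islands also had a lower fold, 1.70 against 2.77.

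Each length class up to 4800 bases was cut into 5 equal parts by control density, a division chosen after the values were seen. The longest class was not divided. In the divided classes the met share rose mainly among the islands with the most control reads. Among wild-type islands of 200 bases it was 4.78% in the part with fewest control reads, 9.93% in the next to last and 35.3% in the last, whose islands had at least 80 control reads per kb. Among BD1del islands of 200 bases it lay between 3.22% and 3.43% in the first 4 parts and at 6.49% in the last. At 2000 to 4800 bases the last part stood at 53.4% in wild type and 54.5% in BD1del, against 26.4 to 33.6% and 28.2 to 35.7% in the others.

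**Figure D2:**
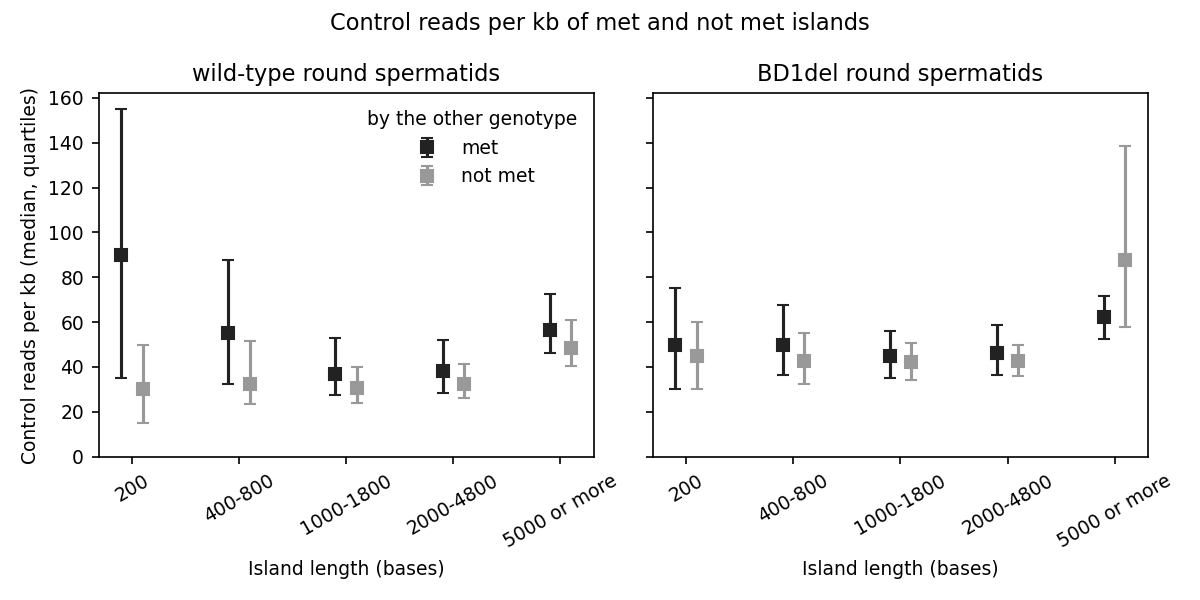
Control reads per kb (y axis) of islands that were met (black) or not met (grey) by the other genotype in 5 classes of island length (x axis, bases), in wild type on the left and BD1del on the right; squares are medians and bars run between quartiles. In wild type met islands had the higher median in each class, 90 against 30 at 200 bases, and in BD1del the order turned at 5000 bases or more.

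Islands of high fold were met less often than islands of low fold. Ranked by the authors' fold among islands with at least 10 control reads, the wild-type share fell from 39.7% in the lowest of 5 equal parts (fold 1.06 to 1.89) through 32.4%, 27.0% and 23.3% to 17.1% in the highest (fold 4.19 to 43.6). The BD1del share fell from 21.4% (fold 1.07 to 3.49) through 15.0%, 10.3% and 6.85% to 5.59% (fold 8.92 to 56.9). Length fell along the same ranking, from a median of 2600 bases in the lowest to 800 in the highest part of wild type and from 1400 to 400 in BD1del, so these steps are not separate from those by length.

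Few of the overlaps matched at both ends, and an island lying inside the other was the most common form. The met islands formed 19009 pairs, and in 749 of them (3.94%) both genotypes had the same first and last base. The BD1del island lay inside a longer wild-type island in 9001 pairs (47.4%), the wild-type island inside a BD1del island in 2908 (15.3%), and each extended past the other in 6351 (33.4%). The wild-type island was the longer one in 67.0% of pairs. A pair shared a median of 600 bases, and 5029 pairs (26.5%) shared a single 200-base window. The centres of paired islands lay a median of 500 bases apart (quartiles 200 and 1000).

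Nearly all met islands met 1 island of the other list. In wild type 17014 met 1 island, 863 met 2 and 80 met 3 or more, with 9 as the most, and in BD1del the counts were 18367, 309 and 8. The median met wild-type island was covered to 47.6% by BD1del islands and 20.4% of them were covered in full. Of the met BD1del islands, 52.2% were covered in full by wild-type islands. Across the 19009 pairs, the rank correlation (Spearman's rho, a description over pairs that share position and mappability) was 0.375 for control reads per kb, 0.322 for fold, 0.239 for length and 0.073 for ChIP reads per kb. Over the 9216 pairs in which both islands had at least 1000 bases, rho for ChIP density was 0.233 and for control density 0.416.

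The rule turns on single windows at the edge of an island. The 4537 wild-type islands met by 200 bases only had a median length of 1400 bases, 33.2 control reads per kb and a fold of 2.90. The 1392 that touched a BD1del island without sharing a base had 1400 bases, 28.8 control reads per kb and a fold of 3.23. In BD1del the 4957 islands met by 200 bases only had a median of 200 bases, 46.5 control reads per kb and a fold of 7.78, and the 1579 that touched had 400 bases, 42 control reads per kb and a fold of 7.49.

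Unmet islands of wild type lay closer to the other list than those of BD1del, whose neighbours come from a list with fewer islands. The 50039 unmet wild-type islands were a median of 4000 bases from the nearest BD1del island (quartiles 1600 and 8200), and 141 were more than 50000 bases away. The 172098 unmet BD1del islands were a median of 12400 bases from the nearest wild-type island (quartiles 5000 and 25600), and 12693 were more than 50000 bases away. Within 600 bases, the gap that the caller bridges inside a list, lay 5565 unmet wild-type and 6434 unmet BD1del islands, touching ones included.

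Chromosome 1 stood apart from the other autosomes in both genotypes. Islands covered 10.96% of it in wild type and 10.94% in BD1del, while chromosomes 2 to 19 ranged from 3.38% (chromosome 11) to 6.27% (chromosome 14) in wild type and from 4.33% (chromosome 8) to 6.30% (chromosome 2) in BD1del. On chromosome 1, 47.4% of wild-type islands were met (interval 46.4 to 48.4) and 24.5% of BD1del islands (interval 23.9 to 25.2). On the other autosomes the wild-type share ran from 18.2% on chromosome 8 to 31.0% on chromosome 2, with a median of 22.3%. The BD1del share ran from 5.96% on chromosome 10 to 12.5% on chromosome 19, with a median of 7.69%. No interval of chromosomes 2 to 19 reached that of chromosome 1 in either list.

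With 8.04% of the span of the autosomes, chromosome 1 held 39.8% of the bases shared by the genotypes. Both lists also covered more of it, so the shared part was set against coverage. The shared percent of wild-type bases divided by the percent covered in BD1del was 3.15 on chromosome 1 and 4.16 beyond 24 Mb. On the other autosomes that ratio ran from 1.65 (chromosome 11) to 3.01 (chromosome 2). Chromosome 1 held 13.8% of all wild-type and 9.85% of all BD1del islands, and 24.75% and 24.7% of the met ones. Control reads moved with it: among islands of at least 1000 bases the median control density on chromosome 1 was 44.7 reads per kb in wild type, against 29 to 35.8 on the others, and 49 in BD1del, against 40.6 to 44.2. The fold of these islands on chromosome 1 was lower than on any other autosome, 2.00 in wild type and 3.28 in BD1del. The part of the denser control reads in the values of chromosome 1 was not tested. Without chromosome 1 the met shares were 23.1% and 8.18%, and 11.6% of wild-type and 9.60% of BD1del bases were shared.

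The met share also varied among the other autosomes. The wild-type met share declined from 31.0% on chromosome 2 to between 18.2% and 22.7% on chromosomes 6 to 14, and rose again to 28.8% on chromosome 19. In BD1del it was 11.99% on chromosome 2, between 5.96% and 6.90% on chromosomes 6 to 12, and 12.5% on chromosome 19. Both shares count the same overlapping pairs, so their order over chromosomes is not independent. The covered share had a rho of 0.570 between the genotypes over the 19 autosomes, chromosome 1 included.

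**Figure D3:**
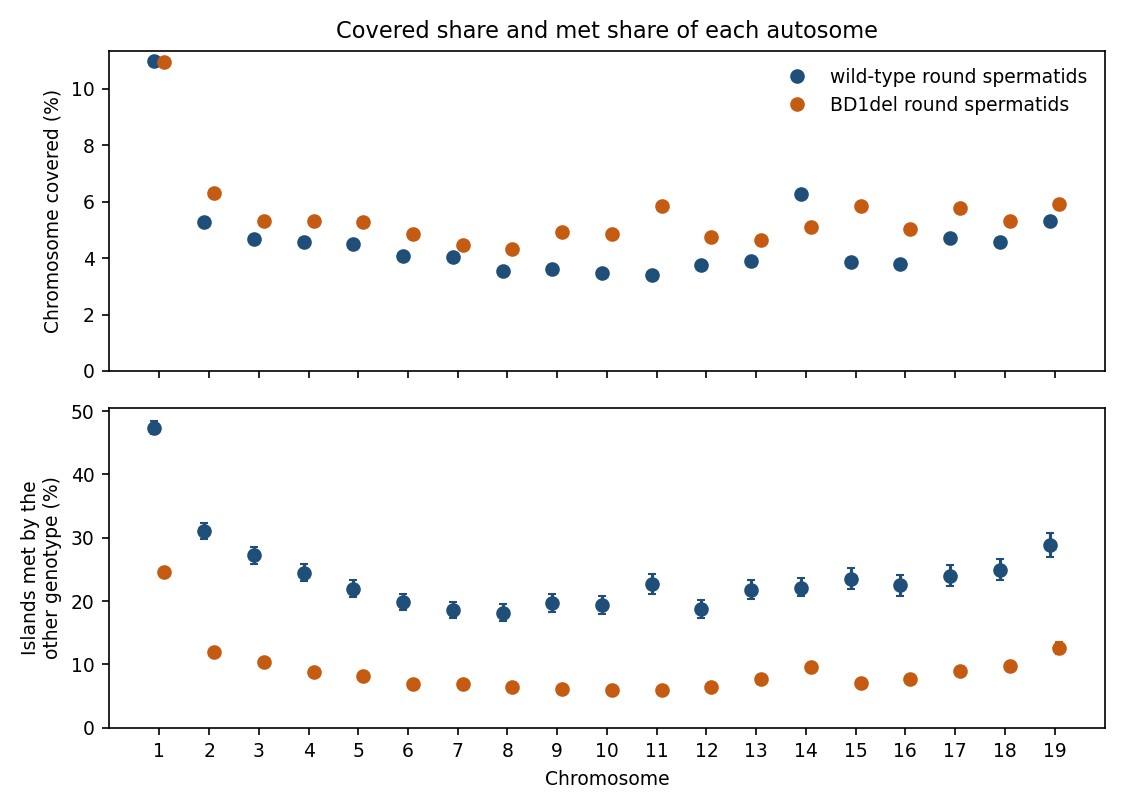
Share of each autosome covered by islands (upper panel, %) and share of its islands met by the other genotype (lower panel, %), by chromosome, with points for wild type and BD1del and bars in the lower panel for the exact 95% binomial interval. Chromosome 1 lay above all others in both panels, at 10.96% and 10.94% covered and at 47.4% and 24.5% met.

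Along chromosome 1 the genotypes differed near its start and ran in parallel beyond it. Wild-type islands covered 32.2% of the part before 10 Mb and 39.2% of the part from 10 to 20 Mb, where BD1del islands covered 17.3% and 13.6%. From 30 Mb on, BD1del was the higher in every 10-Mb part, as in 110 to 120 Mb with 11.9% in wild type and 15.2% in BD1del, or 80 to 90 Mb with 4.51% and 7.95%. Beyond 24 Mb, 7.72% of chromosome 1 was covered in wild type and 10.5% in BD1del, and 43.9% of the wild-type bases there were shared. The met share of wild-type islands on that stretch was 48.8% (interval 47.6 to 49.96), so it did not rest on the first 24 Mb. Met wild-type islands there had a median of 52.9 control reads per kb and the unmet ones 31.7.

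Across the 2406 bins of 1 Mb that tile the autosomes, BD1del covered more than wild type in 1844, wild type more in 548, and 14 were equal. The median bin was covered to 3.98% in wild type (quartiles 3.08 and 5.20) and to 5.20% in BD1del (quartiles 4.33 and 6.24). The highest bin reached 51.2% in wild type and 22.8% in BD1del. Bins covered to at least 20% numbered 31 in wild type, 21 of them on chromosome 1 and 9 on chromosome 14, and 5 in BD1del, 4 of them on chromosome 1. On chromosome 1 beyond 24 Mb, BD1del was the higher in 167 of 173 bins.

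Ranks of the bins went together on chromosome 1 more than elsewhere. The rho between genotypes was 0.841 over the 194 bins of chromosome 1, 0.862 over its 173 bins beyond 24 Mb, and 0.274 over the 2212 bins of the other autosomes. Between stages of 1 genotype, rho over all bins was 0.709 (wild type) and 0.555 (BD1del), and it was 0.401 between genotypes in round spermatids. Bins share library, depth and mappability, and the stages of 1 genotype also share a read set. Of the 100 most covered bins of each list 76 were the same, 64 of them on chromosome 1 and 12 elsewhere. Chromosome 1, with 8.06% of all bins, supplied 67 of the 100 in wild type and 83 in BD1del. The 100 bins with the most shared bases held 34.3% of all shared bases, and 85 of them lay on chromosome 1 and 8 on chromosome 14.

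**Figure D4:**
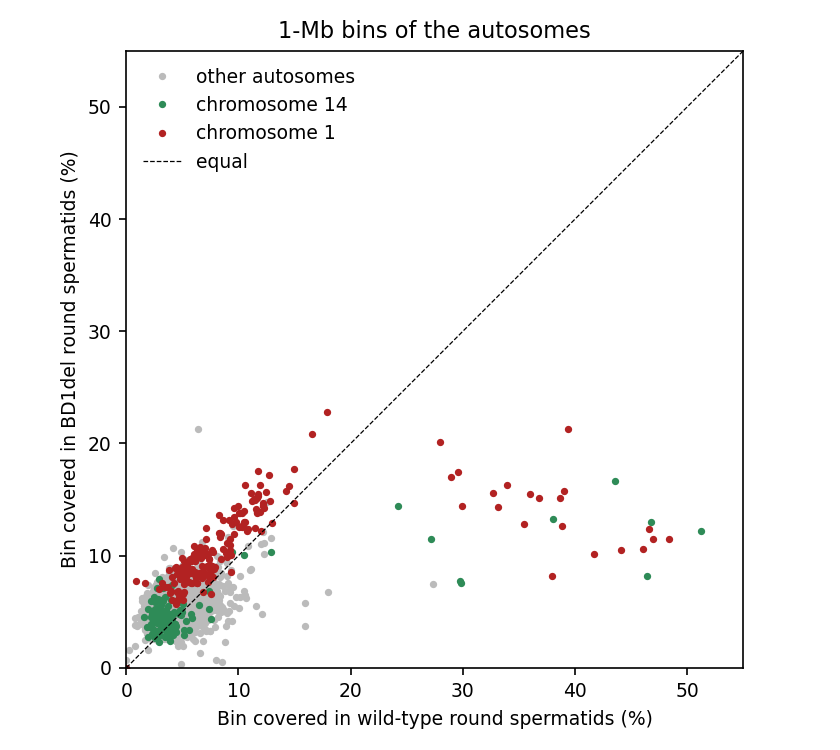
Share of each 1-Mb bin covered by wild-type islands (x axis, %) and by BD1del islands (y axis, %), with chromosome 1 in red, chromosome 14 in green, other autosomes in grey and a dashed line of equal coverage. The 31 bins covered to at least 20% in wild type lie below the line on the right, and the other bins of chromosome 1 lie mostly above it.

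The bin with the most shared bases was chromosome 1 from 119 to 120 Mb, where wild-type islands covered 17.9%, BD1del islands 22.8% and both together 12.3%. It held 63 wild-type islands, 44 of them met, and 114 BD1del islands, 46 of them met. Chromosome 1 from 103 to 104 Mb was close to it, with 16.6%, 20.8% and 11.8% shared. The largest excess of wild type was on chromosome 14 from 4 to 5 Mb, with 51.2% in wild type and 12.2% in BD1del. The same bin was covered to 78.3% in wild-type and 3.26% in BD1del spermatocytes, so the wild-type excess there was present at both stages. Control reads there stood at 75.01 per kb of wild-type and 44.76 per kb of BD1del islands. The next were chromosome 14 from 3 to 4 Mb (46.4% and 8.18%) and chromosome 1 from 20 to 21 Mb (48.4% and 11.5%). Control reads per kb of wild-type and BD1del islands were 67.2 and 31.6 in the former and 52.3 and 52.4 in the latter. The part of control density in these excesses was not tested.

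The largest excess of BD1del was on chromosome 8 from 19 to 20 Mb, with 6.42% in wild type and 21.3% in BD1del. Control reads there were dense, 137 per kb of wild-type and 216 per kb of BD1del islands, and spermatocytes differed likewise, at 1.90% and 22.3%. On chromosome 1 from 85 to 86 Mb wild-type islands covered 0.86% and BD1del islands 7.72%, with 2.18% and 21.0% in spermatocytes. Smaller excesses of BD1del lay on chromosome 17 from 6 to 7 Mb (4.14% and 10.7%), chromosome 8 from 72 to 73 Mb (3.34% and 9.86%) and chromosome 11 from 61 to 62 Mb (2.58% and 8.46%). The BD1del islands that met a wild-type one in these 5 bins were, in the order given, 7 of 67, 3 of 27, 7 of 84, 7 of 70 and 6 of 121. The share was 9.79% over all BD1del islands and 24.5% over those of chromosome 1.

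Among met islands of at least 5000 bases, the 2 with the most ChIP reads per kb lay at the same places in both genotypes and were about as dense in the control. At chr2:98501601-98507600 both lists had an island of the same coordinates, with 60388 ChIP and 70145 control reads in wild type and 71648 and 71863 in BD1del. At the start of chromosome 9, the wild-type island chr9:2999801-3038600 held 325092 ChIP and 355988 control reads and lay inside the BD1del island chr9:2999801-3039800 with 301891 and 295799. The deposited folds of these islands were 3.26 and 3.46 in wild type and 5.43 and 5.56 in BD1del. The 1% of islands with the most control reads per kb held 17.7% of the ChIP reads of all wild-type islands and 8.95% of those of BD1del. Without them the met shares were 25.4% and 9.38%.

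Of the met islands of highest fold, several had a partner of lower fold and 1 did not. These islands were picked for their fold in 1 list, so a lower fold in the partner follows in part from the choice. The lists also differed in fold, with medians of 2.79 in wild type and 7.12 in BD1del. The met wild-type island of highest fold, chr3:31041401-31042200, had 118 ChIP and 15 control reads (fold 29.8), and the BD1del island of 400 bases inside it had 27 and 17 (fold 8.65). A wild-type island on chromosome 7, chr7:129511201-129512000, had a fold of 17.6, and its BD1del partner of 600 bases, with 83 ChIP and 24 control reads, had 18.8. In BD1del the met island of highest fold, chr2:171688601-171689200, had 100 ChIP and 13 control reads (fold 41.9) and lay inside a wild-type island of 2800 bases with 145 and 286 (fold 1.92). On chromosome 19, chr19:56396801-56397800 was called with the same coordinates in both genotypes, with 102 ChIP and 14 control reads in BD1del (fold 39.7) and 55 and 37 in wild type (fold 5.63). The BD1del island chr6:54538401-54539000 (74 ChIP and 13 control reads, fold 31.0) lay inside a wild-type island of 1600 bases with 222 ChIP and 416 control reads (fold 2.02).

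The unmet islands of highest fold were 400 to 800 bases long in both lists. In BD1del the highest was chr7:150720001-150720400, with 115 ChIP and 11 control reads (fold 56.9), which was 66200 bases from the nearest wild-type island and covered in full by BD1del spermatocyte islands. Next came chr15:57938201-57938600, with 449 and 48 reads (fold 50.9), also covered in full by that list, and chr7:150715201-150715600, with 84 and 11 (fold 41.6), which met no spermatocyte island. None of these 3 met a wild-type spermatocyte island. In wild type the highest was chr14:15691801-15692400, with 138 ChIP and 12 control reads (fold 43.6), which was 3400 bases from the nearest BD1del island and covered to 33.3% by wild-type spermatocyte islands. Next came chr8:23163001-23163800, with 80 and 10 reads (fold 30.3), and chr13:89596601-89597000, with 69 and 11 (fold 23.8), and neither met a spermatocyte island.

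Of the unmet islands of at least 5000 bases, those with the most ChIP reads per kb had folds of 1.22 to 2.00. In wild type, chr1:10089601-10097200 had 2272 ChIP and 4345 control reads (fold 1.98) and lay in full within islands of wild-type spermatocytes, with 21.1% of it in islands of BD1del spermatocytes. The wild-type island chr17:7136201-7143000 had 1327 and 2512 reads (fold 2.00), and 97.1% and 52.9% of its bases lay in islands of the same 2 spermatocyte lists. In BD1del, chr8:19924001-19955800 ran for 31.8 kb with 3110 ChIP and 12310 control reads (fold 1.38), was covered in full in BD1del spermatocytes and met no wild-type spermatocyte island. The BD1del island chr8:56196801-56208800 had 968 and 4331 reads (fold 1.22) and met no spermatocyte island. Other long islands coincided. The 34.6-kb BD1del island chr17:3004801-3039400 was covered to 98.3% by a wild-type island, and no wild-type spermatocyte island lay on it.

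Over each list as a whole, met islands were also found more often in spermatocytes of either genotype than unmet ones. Over all wild-type round spermatid islands, 26.6% met an island of wild-type spermatocytes and 19.7% an island of BD1del spermatocytes. For those met by BD1del round spermatids the shares were 44.1% and 38.8%, and for those not met 20.2% and 12.8%. Over all BD1del round spermatid islands, 6.61% met wild-type spermatocytes and 12.3% met BD1del spermatocytes. For those met by wild-type round spermatids the shares were 42.6% and 35.7%, and for those not met 2.71% and 9.75%. No spermatocyte island of either genotype lay on 70.5% of unmet wild-type islands and on 88.3% of unmet BD1del islands.

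The spermatocyte genotype that was met more often turned between met and unmet islands of BD1del. Met BD1del islands were chosen by overlap with wild-type round spermatids, which share genotype and read set with the wild-type spermatocytes. The turn therefore follows in part from the division, and how large that part is was not tested. Unmet BD1del islands met the BD1del spermatocyte list more often than the wild-type one in each of the 5 length classes, as at 200 bases with 6.31% and 1.12%. Met BD1del islands met the wild-type list more often in each class up to 4800 bases taken whole, as at 200 bases with 23.6% and 16.2%. At 2000 to 4800 bases the order turned where control reads were densest. There wild-type and BD1del spermatocytes met 61.2% and 61.9% in the next to last part and 73.9% and 81.6% in the last. At 5000 bases or more, met BD1del islands met the BD1del list more often, with 95.9% against 91.3%. In wild type both met and unmet islands met their own genotype's list more often in each length class taken whole. At 5000 bases or more the shares were 86.6% against 69.5% for met and 80.8% against 26.3% for unmet islands. In many of the parts by control density the wild-type order turned, up to the middle part in some classes. It did not turn in the part with most control reads of any divided class. In the part with fewest at 1000 to 1800 bases, wild-type spermatocytes met 7.13% and BD1del spermatocytes 13.2% of met islands. For unmet islands of that part the shares were 3.65% and 10.1%. In the middle part of that class they were 13.3% and 20.5% for met and 6.89% and 10.8% for unmet islands. In the densest part of that class they were 68.1% and 55.6% for met and 54.2% and 17.0% for unmet islands. The 2 spermatocyte lists differ in number, 29531 and 105380 islands, and each shares its read set with the round spermatids of its genotype.

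**Figure D5:**
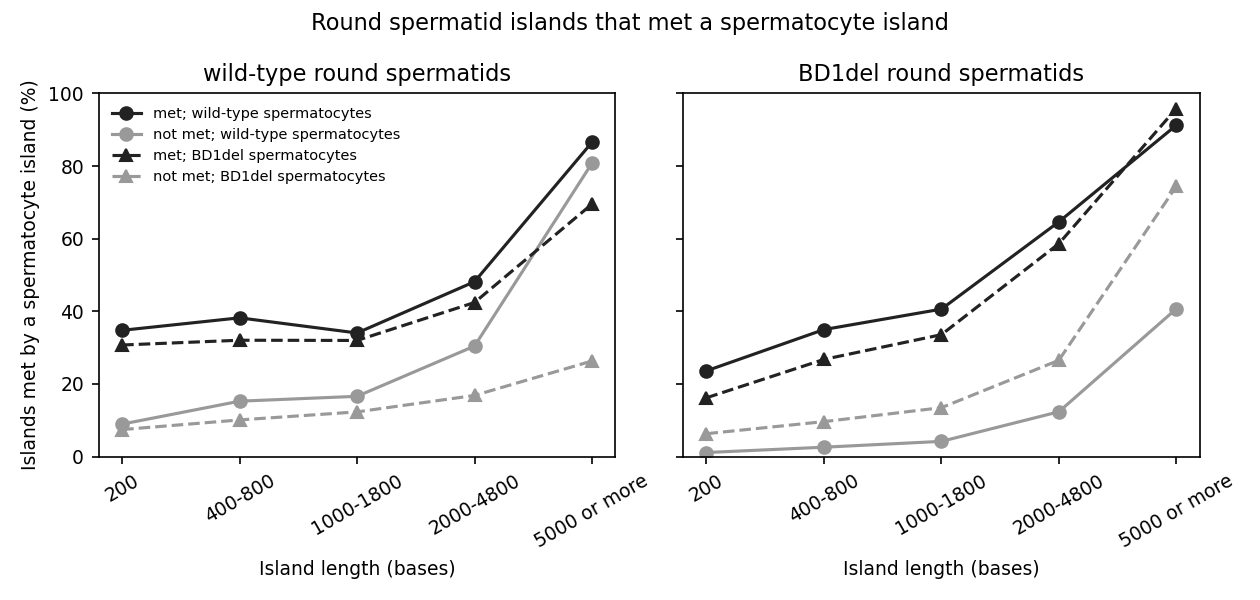
Share of round spermatid islands that met a spermatocyte island (y axis, %) in 5 classes of island length (x axis, bases), for wild-type islands on the left and BD1del islands on the right; black is met and grey not met by the other genotype's round spermatids, circles are wild-type and triangles BD1del spermatocytes. In each class the met islands lie above the unmet ones of the same spermatocyte list, as with 23.6% against 1.12% for BD1del islands of 200 bases and wild-type spermatocytes.

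These differences varied with control density. In wild type the share met by wild-type spermatocytes was 2.18 times as high in met as in unmet islands overall. Among the 5 parts of each length class by control density, up to 4800 bases, that ratio ran from 1.11 to 4.93 and was 1.15 to 1.26 in the densest parts. With BD1del spermatocytes it ran from 0.327, in the 200-base islands with the fewest control reads (50 met islands), to 4.16. For BD1del islands the same parts gave 3.07 to 27.6 with wild-type and 1.17 to 3.95 with BD1del spermatocytes. The order turned among wild-type islands of at least 5000 bases on chromosome 1, where wild-type spermatocytes met 93.6% of met and 95.5% of unmet islands.

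On chromosome 1 the spermatocyte lists met 62.8% (wild type) and 63.6% (BD1del) of the met wild-type islands, against 30.8% and 18.6% of the unmet ones. On the other autosomes the shares were 38.0% and 30.7% for met and 19.1% and 12.2% for unmet islands, so met islands were the higher in both parts of the genome. For BD1del islands on the other autosomes they were 36.7% and 28.0% for met and 2.29% and 9.18% for unmet islands. Distance from the other genotype went with these shares in BD1del: wild-type spermatocyte islands met 9.06% of the BD1del islands that touched a wild-type island and 1.44% of those more than 50000 bases away, while BD1del spermatocyte islands met 11.3% and 9.14%. In wild type the share met by wild-type spermatocytes went the other way, from 14.3% of touching islands to 32.6% of the 141 islands more than 50000 bases away. The share met by BD1del spermatocytes fell from 12.4% to 5.67%. Those 141 islands also had a median of 1800 bases, 43.5 control reads per kb and a fold of 2.05. The touching ones had 1400 bases, 28.8 control reads per kb and a fold of 3.23. The part of length and control density in these shares was not tested.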

How the data were processed

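Deposited lists of anti-Brdt ChIP-seq islands were read for round spermatids and, as a description, for spermatocytes, with 1 library a group. Per the submitters' processing notes, islands were called with SICER on mm9. The window of 200 bases, the gap of 600 bases and the FDR limit of 0.01 come from the labels of the lists. Not given in the sources used here were the aligner, read filters, handling of duplicate reads and the input behind each list. For each island the authors deposited whole-number counts of ChIP and control reads, without normalization, a p-value and FDR of ChIP against scaled control, and the fold, a ratio of ChIP reads to control reads scaled by library size.

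Densities are the deposited counts divided by island length. The ratio of library sizes was recovered from counts and fold and was the same for all islands of a list. Overlaps, distances, bins of 1 Mb, medians and exact 95% intervals were computed with Python 3.11.15, numpy 2.4.6, pandas 2.3.3 and scipy 1.17.1, and the counting of overlaps was checked on simulated lists. No test was made, since each group had 1 library. Reads and neighbouring islands are not independent, so intervals cover counting error only.

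The members, length classes, named regions and alternatives were chosen with earlier results of these data known. The rule named, in each list, the 3 longest islands, the 3 with the highest fold among those with 10 or more control reads, in met and in unmet islands, and the 3 met and 3 unmet islands of at least 5000 bases with the most ChIP reads per kb. It also named the 5 bins of highest coverage, of largest difference in each direction and of most shared bases. The text gives part of them.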

Additional observations from a re-analysis of the deposited data

How the results depend on the processing

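With 14 other settings of overlap, threshold, length and region, plus 2 bin sizes, 214 values were recomputed. Of these, 158 stayed within the set range, 48 moved and 8 changed direction, and where they did the cause was not tested. Ratios that became 1, and so had no direction, were counted as within the range. The share of wild-type islands met was 26.4% and of BD1del islands 9.79%; no test or threshold applies to them. They became 13.2% and 7.82% when at least 50% of the island had to be covered, 9.63% and 3.43% with reciprocal overlap of 50%, and 34.6% and 13.2% within 600 bases. With an FDR of at most 1e-10 they were 18.6% and 2.84%, with deposited folds from 2 up 22.3% and 6.35%, and in lists of 10000 islands of lowest p 4.77% and 4.88%, where equal numbers bring the shares together by construction. With at least 10 control reads they were 25.8% and 11.6%, without the 1% of islands densest in control reads 25.4% and 9.38%, without single windows 23.6% and 13.2%, and with at least 1000 bases 18.0% and 16.01%. Leaving out dense bins gave 25.6% and 9.13%, leaving out the first parts of chromosomes 1 and 14 gave 25.7% and 9.21%, and leaving out chromosome 1 gave 23.1% and 8.18%. Merging within 1000 bases gave 9.95% for BD1del.

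The shared part of BD1del bases was 4.70% and of the union 3.72% at that FDR limit, and 6.12% and 4.14% for folds from 2 up. The shared part of wild-type bases was 8.44% in lists of 10000 islands. The ratio of met to unmet ChIP density in wild type was 0.996 and turned to 1.28 with 50% covered, 1.16 with reciprocal overlap, 1.17 in lists of 10000, 1.05 with at least 10 control reads, 1.04 without single windows, 1.10 with at least 1000 bases, 1.004 without dense bins and 1.007 without the first parts of chromosomes 1 and 14. With folds from 2 up it was 1 in wild type. In BD1del it moved from 0.590 to 0.982 with at least 1000 bases. In lists of 10000 islands the ratio of control density was 3.42 in wild type and 2.42 in BD1del, and the ratio of length 3.67 and 4. The length ratio was 2 in wild type at an FDR of at most 1e-10 and 1 with at least 50% of the island covered. In BD1del it was 1.5 both without single windows and with at least 1000 bases.

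The ratio of met to unmet islands in the share found in spermatocytes was above 1 in all 56 recomputed values, from 1.80 to 4.65 in wild type and 2.60 to 16.3 in BD1del. For wild-type islands it was 4.07 with wild-type and 4.65 with BD1del spermatocytes in lists of 10000, and 3.72 with wild-type spermatocytes at an FDR of at most 1e-10. For BD1del islands and wild-type spermatocytes it moved from 15.7 to 8.59 in lists of 10000, 9.76 at the FDR limit of 1e-10, 6.92 with folds from 2 up and 8.71 with at least 1000 bases. The rank correlation over bins lay between 0.253 and 0.542. No paired analysis was possible because each group had 1 library, and no replicate could be left out. Neither list held an island with fewer than 17 ChIP reads, so weaker enrichment is not described.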
